A study of Mus musculus with 10 samples.

Results

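Macrophage genes were followed through a set of mouse stromal cell cultures. The set held 47 genes that are characteristic of macrophages, the resident phagocytes of tissues: complement subunits, Fc receptors and their adaptors, pattern recognition and scavenger receptors, the receptor for macrophage growth factor and its transcription factors, lysosomal proteins, the phagocyte oxidase, and leukocyte surface and signalling proteins. The genes were chosen by name, with no measured value in the rule, but with earlier results of these data known. Each was read from the probe of its symbol with the highest mean intensity over all arrays. Detection and level refer to that probe unless another is named. A probe was listed for 46 of the 47 genes, out of 19057 genes on the array. Cd68, a lysosomal membrane protein of macrophages, had no probe under its symbol and was not analysed here. The 46 genes had 83 probes between them, and 22 genes had more than 1.

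The study asked, by its title, whether lineage-committed cells can be turned back into cells like mesenchymal stem cells (MSC), stromal cells that can form bone, cartilage and fat. RNA was measured on 10 Illumina whole-genome bead arrays, each with a single RNA sample. The populations with 1 array each were reprogrammed adipocytes, reprogrammed chondrocytes and reprogrammed osteocytes, labelled as colony-forming (CFU-F) cells, then differentiated adipocytes, differentiated chondrocytes and differentiated osteocytes, then treated in vivo derived osteocytes and in vivo derived osteocytes. Undifferentiated MSC stood on 2 arrays, against which the others were set. All 10 samples shared 1 strain, C57BL/6J, and 1 stated source, MSC of adult bone marrow; the agents used to differentiate, reprogram or treat the cells, the host of the in vivo cells and the age of the animals are not given in the sources used here.

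Macrophages arise from haematopoietic precursors or from embryonic progenitors. Their survival depends on the receptor Csf1r, which binds Csf1 and Il34, and their identity on the transcription factor PU.1, encoded by Spi1. They adhere to culture plastic, as stromal cells do, and bone marrow holds many of them beside the stroma. These genes are therefore a usual measure of haematopoietic cells in a stromal preparation. In RNA from a whole culture, more cells of a type and more RNA of that type per cell cannot be told apart.

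Between 14896 and 16737 of 45281 probes were detected per array, at a detection p-value under 0.01. Intensities were background-corrected, quantile normalised and put on the log2 scale, and the dimmest detected probe lay between 5.36 and 5.78 on each array. Marker genes of the labels gave a mixed picture. The adipocyte array detected 8 of 9 adipocyte genes. The differentiated chondrocyte array detected 5 of 10 cartilage genes, with Comp at 13.77 and Fmod at 12.18, but Col2a1, the collagen of cartilage, stood at 8.28 there, below 11.09, 10.38 and 10.31 on reprogrammed adipocytes, chondrocytes and osteocytes, and Sox9 stood at 9.41, against 10.97 and 8.82 on MSC 1 and MSC 2. Acan, Hapln1 and Matn3 were not detected on any array. Among the osteoblast and osteocyte genes, Bglap stood at 12.24 on the in vivo osteocyte array, but the osteocyte genes Dmp1, Sost, Mepe and Fgf23 were not detected on any of the 10 arrays. Pdpn, at 13.99, and Alpl, at 8.89, were highest on the in vivo osteocyte array, and Ibsp stood at 9.71 there. Sp7 stood at 9.27 there, against 9.56 on both MSC arrays, and Phex at 5.00, against 5.68 and 6.67. The label osteocyte is used below as the submitters gave it.

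Macrophage genes were abundant on 2 arrays and nearly absent on the other 8. The differentiated chondrocyte array detected 44 of 46 genes, and the in vivo osteocyte array also detected 44. The numbers were 8, 7 and 9 on the arrays of reprogrammed adipocytes, chondrocytes and osteocytes, 6 and 8 on those of differentiated adipocytes and osteocytes, 5 on that of treated in vivo osteocytes, and 11 on each MSC array. Of all 19057 genes, 9334 were detected on differentiated chondrocytes and 9486 on in vivo osteocytes, against 8558 to 9247 on the other 8 arrays. Of the 46 genes, 43 were detected on both of the high arrays and 29 on these and on no other. These 2 counts were not made over all genes. Of the 29, Fcgr2b alone had another probe detected elsewhere. Only 3 genes, Cd14, Tlr2 and Slc11a1, were detected on all 10 arrays, and 1, Cybb, on none. Summed over the 46 genes, the background-corrected intensity was 342154 on the differentiated chondrocyte array and 323524 on the in vivo osteocyte array, against 2693 to 4049 on the other 8 arrays. At the level of probes, 70 of the 83 were detected on both high arrays and 9 on neither.

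**Figure D1:**
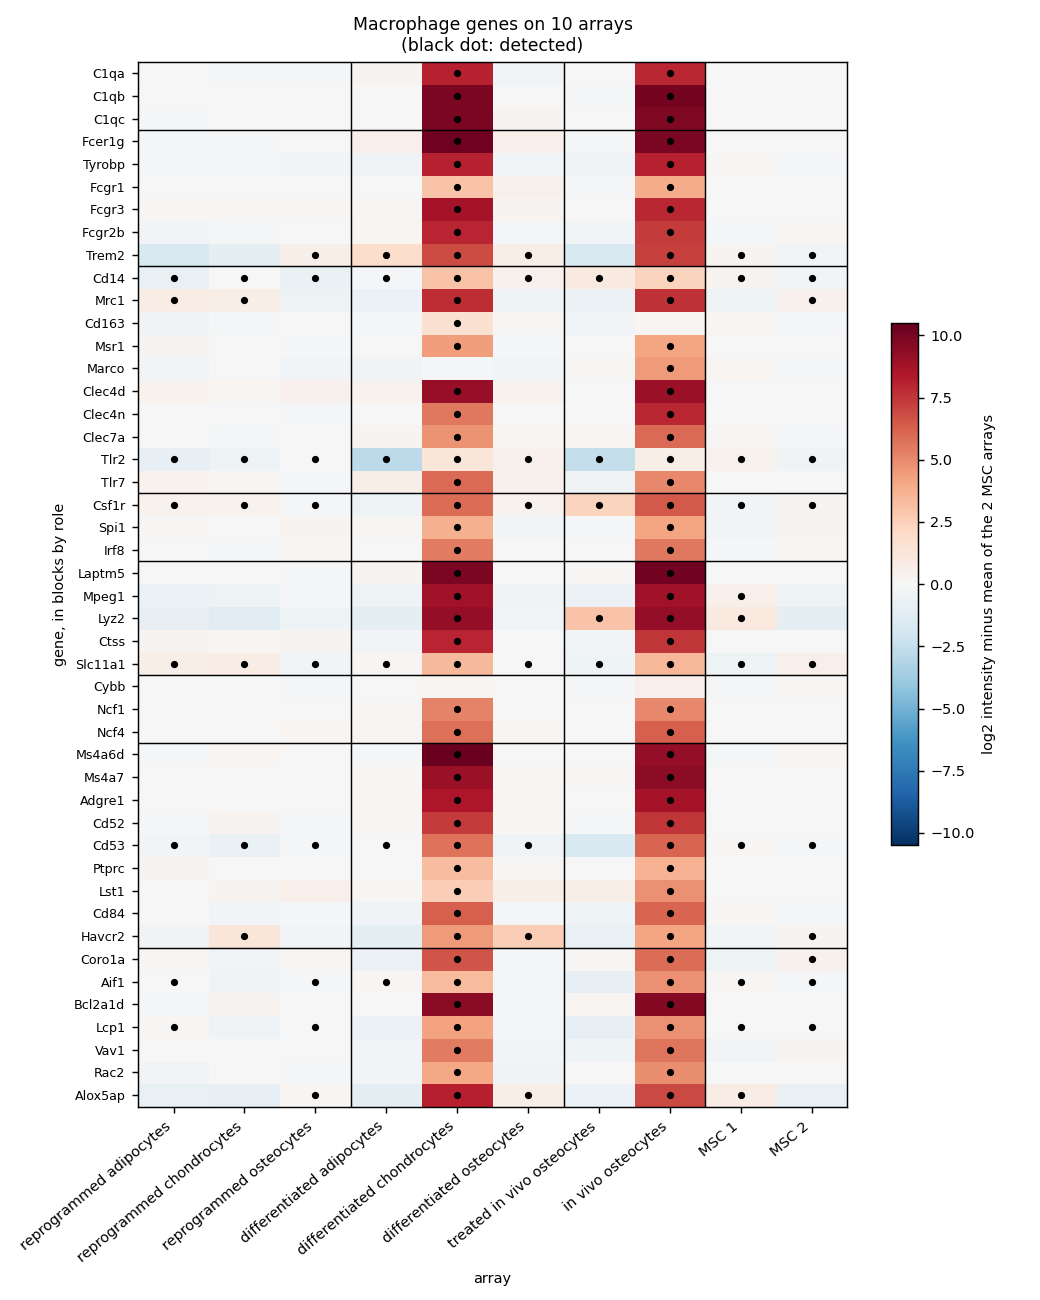
Log2 intensity of each of 46 macrophage genes minus the mean of the 2 MSC arrays (colour), by array (columns, 1 RNA sample each) and gene (rows, in blocks by role), with a black dot where the gene was detected. The columns of differentiated chondrocytes and in vivo osteocytes are red and dotted for 44 genes each, while the other 8 columns hold 5 to 11 dots.

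Against MSC, 43 of 46 genes were higher on the differentiated chondrocyte array, meaning 2-fold or more above both MSC arrays with detection; of all 19057 genes 7.50% met the same rule. With undetected arrays set at their detection limit, 42 of the 43 still reached 2-fold, and Cd163 did not. None of the 46 was lower, against 5.78% of all genes. The median difference of the 46 was 5.90 on the log2 scale, or 5.74 with undetected genes set at their detection limit, and the median of all genes was -0.07. On the in vivo osteocyte array 43 of 46 were also higher than MSC, against 7.13% of all genes, and none was lower, against 4.52%. There the median difference was 6.19, or 5.94 with limits, and the median of all genes was -0.06. The genes higher on both arrays numbered 42; over all genes, 984 were higher on both. The 2 comparisons share the MSC arrays. With 1 array per population none of these differences has a test.

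The 3 chains of C1q, the recognition molecule of the classical complement pathway, which macrophages secrete, were high on the same pair of arrays and undetected on the rest. C1qb stood at 14.39 on differentiated chondrocytes and 14.51 on in vivo osteocytes, against 4.32 to 4.57 on the other 8 arrays. C1qc stood at 14.41 on differentiated chondrocytes and 14.39 on in vivo osteocytes, against 4.40 to 4.88. C1qa stood at 12.71 on differentiated chondrocytes and 12.57 on in vivo osteocytes, against 4.36 to 4.94. None of the 3 was detected on any other array, and the high and low arrays did not overlap. The difference from MSC was at least 463-fold for C1qb in differentiated chondrocytes and at least 505-fold in in vivo osteocytes, set against the lowest intensity among detected probes. The 3 genes are neighbours on chromosome 4.

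The upstream sequences of 4 members are shown as examples, and all 4 hold the marked letters, which not all members did. C1qb and C1qc were high on both arrays and absent elsewhere, Mrc1 was high on both with traces elsewhere, and Marco was detected on in vivo osteocytes alone. Each is the 250 bases before the annotated start, from RefSeq on GRCm38.p6, 5′ to 3′ along the gene, and capitals mark GAGGAA on either strand (TTCCTC on the printed strand where the match lies on the other).
C1qb (chr4:136886201-136886450, minus strand): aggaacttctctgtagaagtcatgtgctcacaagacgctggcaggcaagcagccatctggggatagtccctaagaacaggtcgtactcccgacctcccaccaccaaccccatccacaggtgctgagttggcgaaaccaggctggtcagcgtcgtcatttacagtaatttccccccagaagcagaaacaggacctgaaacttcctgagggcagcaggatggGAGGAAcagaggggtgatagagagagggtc
C1qc (chr4:136892915-136893164, minus strand): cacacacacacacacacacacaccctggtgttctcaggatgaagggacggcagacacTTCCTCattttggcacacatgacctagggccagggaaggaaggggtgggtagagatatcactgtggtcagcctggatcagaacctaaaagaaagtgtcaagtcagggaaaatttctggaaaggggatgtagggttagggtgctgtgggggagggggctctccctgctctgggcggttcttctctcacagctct
Mrc1 (chr2:14229164-14229413, plus strand): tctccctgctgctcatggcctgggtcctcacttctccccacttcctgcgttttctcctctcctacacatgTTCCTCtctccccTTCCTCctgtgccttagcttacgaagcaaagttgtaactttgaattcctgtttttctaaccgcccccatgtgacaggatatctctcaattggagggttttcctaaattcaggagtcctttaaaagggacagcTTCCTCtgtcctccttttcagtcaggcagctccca
Marco (chr1:120505025-120505274, minus strand): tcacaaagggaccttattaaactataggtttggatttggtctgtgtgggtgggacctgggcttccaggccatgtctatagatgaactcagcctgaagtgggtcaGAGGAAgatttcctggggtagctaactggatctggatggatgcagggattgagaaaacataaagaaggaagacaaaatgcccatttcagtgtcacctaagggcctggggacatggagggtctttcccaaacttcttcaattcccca
GAGGAA is the purine-rich core of the DNA sequence that PU.1 is known to bind. C1qb and Marco each held 1 match on the gene's strand, C1qc held 1 on the other strand, and Mrc1 held 3 on the other strand. The window of Cd163, which was detected on differentiated chondrocytes alone and is not shown, held no match on either strand. Of the 47 members, 32 matched a RefSeq upstream window, and 19 of these 32 (59.4%) held GAGGAA on either strand, against 25.6% of 15237 genes on the array with a window of the same length. The longer GAGGAAGT, which contains it (ACTTCCTC on the other strand), was found for 4 of 32 members (12.5%), against 2.68%. The letters TATAAA, searched on both strands, were found for 4 of 32 (12.5%), against 12.8%. A match is a description of these letters and no evidence of binding.

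All 6 Fc receptors and signalling adaptors were higher than MSC on both arrays. Fcer1g, the gamma chain through which activating Fc receptors signal, stood at 14.93 on differentiated chondrocytes and 14.63 on in vivo osteocytes, against 4.51 to 5.27 elsewhere. Tyrobp, the adaptor DAP12 that couples Trem2 and related receptors to kinases, stood at 12.84 on differentiated chondrocytes and 12.82 on in vivo osteocytes, against 4.39 to 4.83. Fcgr3 and Fcgr2b, an activating and an inhibitory IgG receptor, stood at 13.22 and 12.78 on differentiated chondrocytes and at 12.37 and 12.07 on in vivo osteocytes, with neither detected elsewhere by these probes. Another, dim probe of Fcgr2b was detected on differentiated chondrocytes, at 5.48, and on MSC 1, at 5.60. These receptors have close relatives, and their probes may not separate them fully. Fcgr1, the high-affinity IgG receptor, was dimmer, at 7.60 on differentiated chondrocytes and 8.47 on in vivo osteocytes.

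Trem2, a lipid-sensing receptor of macrophages and osteoclast precursors, differed from the other 5 in that it was detected on 5 further arrays. It stood at 13.18 on differentiated chondrocytes and 13.54 on in vivo osteocytes, and at 8.18 on differentiated adipocytes, against 6.62 and 6.12 on MSC 1 and MSC 2. The differentiated adipocyte value was 3.51-fold above the MSC mean, and Trem2 was the 1 macrophage gene of 46 that was higher there, against 5.25% of all genes. Reprogrammed osteocytes at 6.95 and differentiated osteocytes at 7.05 lay close to MSC. On reprogrammed adipocytes, at 4.75, reprogrammed chondrocytes, at 5.31, and treated in vivo osteocytes, at 4.80, it was not detected.

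Of 10 pattern recognition, scavenger and lectin receptors, 8 were higher than MSC on the differentiated chondrocyte array and 8 on the in vivo osteocyte array, but not the same 8. Clec4d, a C-type lectin that signals through the Fc gamma chain, stood at 13.56 on differentiated chondrocytes and 13.47 on in vivo osteocytes, against 4.35 to 4.87 elsewhere. Mrc1, the mannose receptor CD206, stood at 12.93 on differentiated chondrocytes and 12.72 on in vivo osteocytes. It was also detected, at 5.90, 5.72 and 5.63, on reprogrammed adipocytes, reprogrammed chondrocytes and MSC 2. Tlr7, a sensor of single-stranded RNA, stood at 10.93 on differentiated chondrocytes and 9.97 on in vivo osteocytes, and Msr1, the class A scavenger receptor, at 8.98 on differentiated chondrocytes and 8.73 on in vivo osteocytes, with neither detected on the other arrays.

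Cd163 and Marco, both scavenger receptors, parted the arrays. Cd163, the haemoglobin receptor of tissue macrophages, stood at 6.22 on differentiated chondrocytes and was not detected on in vivo osteocytes, at 4.87, or elsewhere, and its second probe was detected nowhere. Marco stood at 4.63 on differentiated chondrocytes, where it was not detected, and at 9.24 on in vivo osteocytes. The remaining 8 arrays gave Marco 4.41 to 4.95 without detection.

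Cd14 and Tlr2, the lipopolysaccharide co-receptor and a lipoprotein receptor, were present on all arrays. Tlr2 stood at 10.75 on differentiated chondrocytes and 10.14 on in vivo osteocytes, against 9.87 and 9.14 on MSC 1 and MSC 2, and so lay within 2-fold of at least 1 MSC array on both. It was lowest on differentiated adipocytes, at 6.79, and on treated in vivo osteocytes, at 6.98, which were 6.57-fold and 5.75-fold below the MSC mean (5.44% and 3.97% of all genes were lower there). Cd14 stood at 10.89 on differentiated chondrocytes and 10.19 on in vivo osteocytes, against 8.19 and 7.54 on MSC, and between 7.12 and 8.79 on the other 6 arrays. The high arrays thus lay above MSC by less for these receptors than for the C1q genes.

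The lineage-defining genes were all higher on both arrays. Csf1r stood at 11.91 on differentiated chondrocytes and 12.54 on in vivo osteocytes, against 5.80 and 6.36 on MSC, which is 56.8-fold and 87.8-fold above the MSC mean. Spi1 was dimmer, at 8.49 on differentiated chondrocytes and 8.89 on in vivo osteocytes, and Irf8, a transcription factor of the monocyte lineage, stood at 9.98 on differentiated chondrocytes and 10.06 on in vivo osteocytes. Neither Spi1 nor Irf8 was detected on any of the other 8 arrays. A second Csf1r probe was likewise detected on the 2 high arrays alone, at 7.29 on differentiated chondrocytes and 8.48 on in vivo osteocytes. Csf1, the ligand of Csf1r that stromal cells make, was detected on all 10 arrays, from 7.96 on differentiated adipocytes to 11.44 on in vivo osteocytes. It stood at 10.41 on differentiated chondrocytes, against 10.39 and 11.36 on MSC. Il34, the other ligand, was dim, at 6.24 on differentiated chondrocytes and 5.00 without detection on in vivo osteocytes. Csf2ra, the receptor chain for granulocyte-macrophage growth factor, followed Csf1r, at 9.48 on differentiated chondrocytes and 9.68 on in vivo osteocytes, against 6.01 and 4.61 on MSC 1 and MSC 2. Csf2rb, the shared signalling chain, was detected only on the same 2 arrays, at 5.67 on differentiated chondrocytes and 5.79 on in vivo osteocytes.

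All 5 measured lysosomal and degradative genes were higher on both arrays. Laptm5, a lysosomal membrane protein of haematopoietic cells, stood at 14.55 on differentiated chondrocytes and 14.80 on in vivo osteocytes, against 4.47 to 4.91 elsewhere. Lyz2, the macrophage lysozyme, stood at 14.69 on differentiated chondrocytes and 14.74 on in vivo osteocytes, but was also detected on treated in vivo osteocytes, at 8.47, and on MSC 1, at 6.52, though not on MSC 2, at 4.46. A second Lyz2 probe was detected on all arrays but differentiated adipocytes, at 13.74 on differentiated chondrocytes and 14.06 on in vivo osteocytes, against 5.72 to 9.02 on the other 7. Lyz2 has a near-identical neighbour in Lyz1, and its probes may read both. Mpeg1, the pore-forming perforin-2, stood at 13.93 on differentiated chondrocytes and 13.98 on in vivo osteocytes, and was detected on MSC 1 at 5.67 as well. Its dimmer probe was not detected on MSC 1, at 4.52. Ctss, the endosomal cathepsin S, stood at 12.95 on differentiated chondrocytes and 12.45 on in vivo osteocytes, with no detection elsewhere.

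Slc11a1, a divalent metal transporter of the phagosome, gave probes that disagree. Its brightest probe stood at 14.02 on differentiated chondrocytes and 14.10 on in vivo osteocytes, against 10.07 to 11.40 on the other 8 arrays, all detected. A second probe stood at 12.93 on differentiated chondrocytes and 12.82 on in vivo osteocytes, with 5.73 on reprogrammed chondrocytes and 5.54 on MSC 2 as the only other detections. The remaining 2 probes were detected on the 2 high arrays alone, at 10.41 and 9.57 on differentiated chondrocytes and 9.99 and 9.00 on in vivo osteocytes. The level outside these 2 arrays therefore rests on 1 of 4 probes.

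Of the phagocyte oxidase, 2 of 3 subunits were higher on both arrays. Ncf1 and Ncf4, cytosolic subunits, stood at 9.64 and 10.27 on differentiated chondrocytes and at 9.41 and 10.69 on in vivo osteocytes, with neither detected elsewhere. Cybb, the catalytic membrane subunit, was at 4.90 on differentiated chondrocytes and 5.21 on in vivo osteocytes, and neither of its 2 probes was detected on any array. Cyba, its membrane partner and no member of the 47, stood at 13.21 on differentiated chondrocytes and 13.49 on in vivo osteocytes, but was also detected on all other arrays, from 7.37 to 11.93.

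All 9 leukocyte surface and membrane genes were higher on both arrays. Ms4a6d, a tetraspanning membrane protein, stood at 15.04 on differentiated chondrocytes and 13.86 on in vivo osteocytes, against 4.46 and 4.83 without detection on MSC, at least 728-fold and 321-fold above MSC. Adgre1, an adhesion receptor used as a surface marker of mouse macrophages, stood at 12.98 on differentiated chondrocytes and 13.23 on in vivo osteocytes, against 4.42 to 4.68 on the other 8 arrays. Ms4a7, Cd52 and Cd84 were likewise detected on the 2 high arrays alone, at 11.31 to 13.81. Cd53, a leukocyte tetraspanin, stood at 11.81 on differentiated chondrocytes and 12.25 on in vivo osteocytes and was detected at 5.45 to 6.27 on 7 further arrays, but not on treated in vivo osteocytes, at 4.55. Its second probe was detected on the 2 high arrays alone, at 5.63 on differentiated chondrocytes and 6.60 on in vivo osteocytes.

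Ptprc, which encodes the pan-leukocyte antigen CD45, was among the dimmer members, at 7.78 on differentiated chondrocytes and 8.15 on in vivo osteocytes, against 4.47 to 4.84 elsewhere. Only 1 of its 4 probes was detected, and that on these 2 arrays alone. Havcr2, the receptor TIM-3, stood at 9.82 on differentiated chondrocytes and 9.47 on in vivo osteocytes, and was the 1 gene of 46 higher than MSC on differentiated osteocytes, at 7.97, where 2.59% of all genes were higher, and on reprogrammed chondrocytes, at 6.67, where 0.194% were. It was not detected on MSC 1, at 5.09, and was detected on MSC 2, at 5.64.

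All 7 cytoskeletal, signalling and survival genes were higher on both arrays. Bcl2a1d, of a family of near-identical survival genes whose copies its probes may not separate, stood at 13.98 on differentiated chondrocytes and 14.09 on in vivo osteocytes, against 4.35 to 4.80. Alox5ap, the activating protein of 5-lipoxygenase, stood at 13.84 on differentiated chondrocytes and 12.65 on in vivo osteocytes, and was detected on reprogrammed osteocytes, differentiated osteocytes and MSC 1 at 5.87, 6.31 and 6.47. Coro1a, an actin regulator of leukocytes, stood at 11.84 on differentiated chondrocytes and 11.12 on in vivo osteocytes, Vav1, a guanine exchange factor, at 10.61 on differentiated chondrocytes and 10.81 on in vivo osteocytes, and Rac2, the haematopoietic Rac GTPase, at 8.81 on differentiated chondrocytes and 9.61 on in vivo osteocytes. Lcp1, the actin bundler L-plastin, and Aif1, the calcium-binding protein Iba1, stood at 9.87 and 8.99 on differentiated chondrocytes and 10.41 and 10.45 on in vivo osteocytes. Both were also detected on MSC, at 5.54 to 5.76. The other Aif1 probes were detected on the 2 high arrays alone.

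Set against each other, the 2 high arrays were no closer over these genes than over genes in general. Differentiated chondrocytes minus in vivo osteocytes gave a median of -0.08 on the log2 scale over 46 genes, and -0.02 over all genes. Of the 45 macrophage genes detected on at least 1 of the 2 arrays, 37 (82.2%) lay within 2-fold; of the 9934 such genes in all, 85.4% did. Within 1.5-fold lay 29 of 46, and 20 were above 0 and 26 below.

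In differentiated chondrocytes, 3 genes were higher than in in vivo osteocytes by 2-fold or more (3.62% of all genes) and 5 were lower (3.98%). Higher were Alox5ap, 13.84 against 12.65, Ms4a6d, 15.04 against 13.86, and Cd163, 6.22 against 4.87 without detection; the last is a limit of 1.75-fold, so 2-fold is measured for the first 2 alone. The lower genes were led by Marco, 4.63 without detection against 9.24, which is at least 14.1-fold lower. Clec4n, the lectin Dectin-2, was 5.43-fold lower, at 10.15 against 12.59, and Lst1, a small leukocyte membrane protein, 4.56-fold lower, at 7.11 against 9.30. Aif1 was 2.75-fold lower, and Clec7a, the beta-glucan receptor Dectin-1, was 2.34-fold lower, at 9.29 against 10.52. Of the 5 lower genes 3 were of the pattern recognition, scavenger and lectin receptors, a class of 10 that also held Cd163. The median difference of these 10 was 0.24 on the log2 scale, so the class as a whole was not lower. Dimmer probes did not always give the call of the brightest. Those of Cd84 read 8.10 and 8.52, against 6.49 for each, while its brightest read 11.45 against 11.31. Csf1r had a dimmer probe at 7.29 against 8.48, beyond 2-fold lower, and Clec7a had one at 7.80 against 8.39, within 2-fold. A dim Fcgr2b probe read 5.94 against 4.87 without detection.

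**Figure D2:**
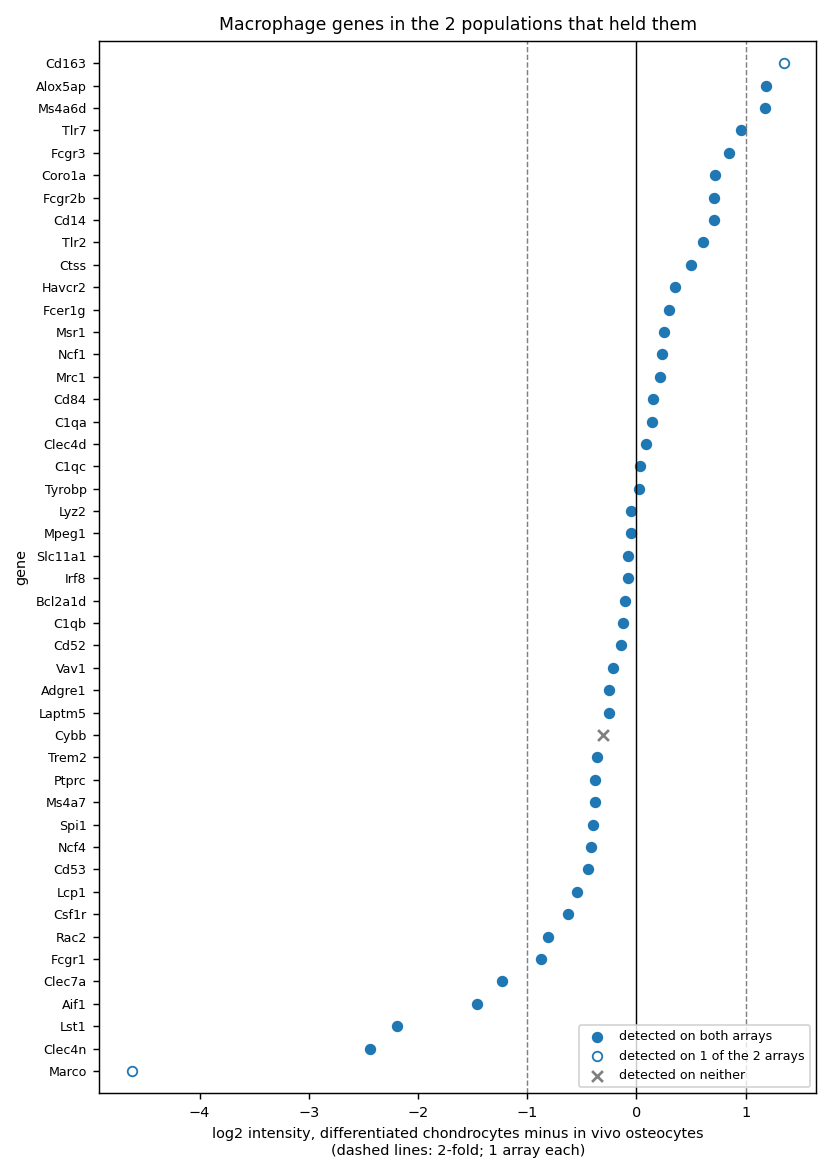
Log2 intensity of 46 macrophage genes on the differentiated chondrocyte array minus the in vivo osteocyte array, 1 array each, sorted from higher to lower, with dashed lines at 2-fold. Most genes lie between the lines, 3 lie to the right, and 5 lie to the left, led by Marco at -4.62.

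A second list of 40 macrophage genes was also chosen with earlier results of these data known. Of these, 36 had a probe, and the list showed the same 2 arrays. On differentiated chondrocytes 26 of the 36 were higher than MSC (7.50% of all genes) and 1 lower (5.78%). On in vivo osteocytes 28 were higher (7.13%) and 1 lower (4.52%). With undetected arrays at their limit, 24 and 25 of these still reached 2-fold higher. The gene that was lower on both was Stab1, a scavenger receptor that endothelial cells share, at 9.88 on differentiated chondrocytes and 10.06 on in vivo osteocytes, against 12.43 and 11.49 on MSC. Gpnmb, a lysosomal glycoprotein, stood at 14.59 on differentiated chondrocytes and 14.63 on in vivo osteocytes, but also at 11.24 on treated in vivo osteocytes, against 6.55 and 7.94 on MSC. Nckap1l, a haematopoietic actin regulator, stood at 11.35 on differentiated chondrocytes and 11.82 on in vivo osteocytes, and Plek, the kinase substrate pleckstrin, at 11.95 on differentiated chondrocytes and 12.56 on in vivo osteocytes.

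In this list 1 of 36 genes was higher in differentiated chondrocytes than in in vivo osteocytes by 2-fold or more (3.62% of all genes), and 5 were lower (3.98%). Each of these arrays detected 29 of the 36, and a gene detected on neither cannot count as higher or lower. Mmp12, macrophage elastase, was not detected on differentiated chondrocytes, at 5.34, or on any other array, but stood at 12.00 on in vivo osteocytes, at least 95.5-fold apart. Folr2, the folate receptor of resident macrophages, stood at 6.27 on differentiated chondrocytes and 10.00 on in vivo osteocytes, and Cx3cr1, the fractalkine receptor, at 6.69 on differentiated chondrocytes and 8.04 on in vivo osteocytes. Myo1f and Pik3ap1, a leukocyte myosin and a signalling adaptor, were lower in differentiated chondrocytes by 1.31 and 1.29 on the log2 scale. Cd300lf, an inhibitory receptor, was the gene that was higher, at 7.26, against 5.22 without detection. Ccr2, a receptor of recruited monocytes, and Timd4 and Cd5l, genes of resident macrophages, were not detected on any array.

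Markers of other blood cells were mostly absent from the 2 arrays. Of 9 measured T and NK cell genes none was detected on either, and of 6 mast cell genes none. Dendritic cell genes were detected for 1 of 8 on differentiated chondrocytes and 0 of 8 on in vivo osteocytes, and B cell genes for 1 and 2 of 5, with Blnk, an adaptor that myeloid cells also use, at 6.71 on differentiated chondrocytes and 8.37 on in vivo osteocytes. Of 6 genes of class II antigen presentation, H2-Aa, Cd74 and Ciita were not detected on any array, and H2-Ab1 was detected on differentiated chondrocytes alone, at 7.63. H2-Eb1 was detected on differentiated adipocytes alone, at 5.99. H2-DMa was detected on 9 arrays. It stood at 8.14 on differentiated chondrocytes and 9.01 on in vivo osteocytes, against 7.42 and 7.01 on MSC 1 and MSC 2. Neutrophil genes numbered 3 and 1 of 12: S100a8 stood at 10.17 on differentiated chondrocytes and 9.29 on in vivo osteocytes, and its partner S100a9 was not detected. Of 5 megakaryocyte genes 2 were detected on differentiated chondrocytes and 1 on in vivo osteocytes. Pf4, a platelet chemokine, stood at 7.80 on differentiated chondrocytes and 11 on in vivo osteocytes and was detected on no other array. Gp1bb was detected on differentiated chondrocytes alone, at 5.97. Itga2b was detected on 5 arrays but on neither of these, and Gp9 and Ppbp were not detected on any array.

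Osteoclasts, the bone-resorbing cells of the macrophage lineage, share many of the 47 genes. Of 10 osteoclast genes 5 were detected on each of the 2 arrays, against 2 or 3 on the other 8. Tnfrsf11a, which encodes the receptor RANK, stood at 8.27 on differentiated chondrocytes and 8.12 on in vivo osteocytes and was detected nowhere else, and Ctsk, cathepsin K, stood at 13.42 on differentiated chondrocytes and 11.85 on in vivo osteocytes, against 9.86 and 9.09 on MSC. Nfatc1 stood at 9.41 on differentiated chondrocytes and 9.08 on in vivo osteocytes, against 8.79 and 9.11 on MSC. Oscar was dim, at 5.96 and 5.83, and was also detected on treated in vivo osteocytes and MSC 1, at 5.67 and 5.68. Acp5 was detected on differentiated chondrocytes alone, at 5.69, and Mmp9 on in vivo osteocytes alone, at 5.68. The other genes of the list, Calcr, Dcstamp, Ocstamp and Atp6v0d2, were not detected on any array. Summed intensity of the osteoclast list was 12053 on differentiated chondrocytes and 4596 on in vivo osteocytes, against 356 to 1624 on the other 8 arrays. Most of it came from Ctsk, which all 10 arrays detected; without Ctsk the sum was 1092 on differentiated chondrocytes and 915 on in vivo osteocytes, against 216 to 659. Of 10 osteoblast and osteocyte genes 4 were detected on differentiated chondrocytes and 5 on in vivo osteocytes, against 2 to 4 elsewhere. Ibsp, bone sialoprotein, was detected on these 2 arrays alone, at 9.72 on differentiated chondrocytes and 9.71 on in vivo osteocytes.

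Stromal genes were detected on both arrays, but several were lower on in vivo osteocytes than on MSC. Of 12 stromal genes 11 were detected on differentiated chondrocytes and 9 on in vivo osteocytes, against 8 and 7 on MSC 1 and MSC 2. Col1a2, a chain of type I collagen, stood at 13.12 on differentiated chondrocytes and 11.55 on in vivo osteocytes, against 12.48 and 12.00 on MSC. On differentiated chondrocytes 5 of the 12 were higher than MSC (7.50% of all genes) and none lower (5.78%). For Thy1 the limit was under 2-fold, and 4 reached 2-fold with limits. On in vivo osteocytes 1, Thy1, was higher (7.13% of all genes), and 3 were lower (4.52%). The lower were Cxcl12, at 11.75, against 14.59 and 14.11 on MSC, Pdgfra, at 8.76, against 12.93 and 10.61, and Col3a1, at 9.65, against 11.86 and 10.75. Summed intensity of the 12 was 42513 on differentiated chondrocytes and 13642 on in vivo osteocytes, against 48155 and 27585 on MSC 1 and MSC 2. How far cells of haematopoietic origin account for the macrophage genes was not tested.

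**Figure D3:**
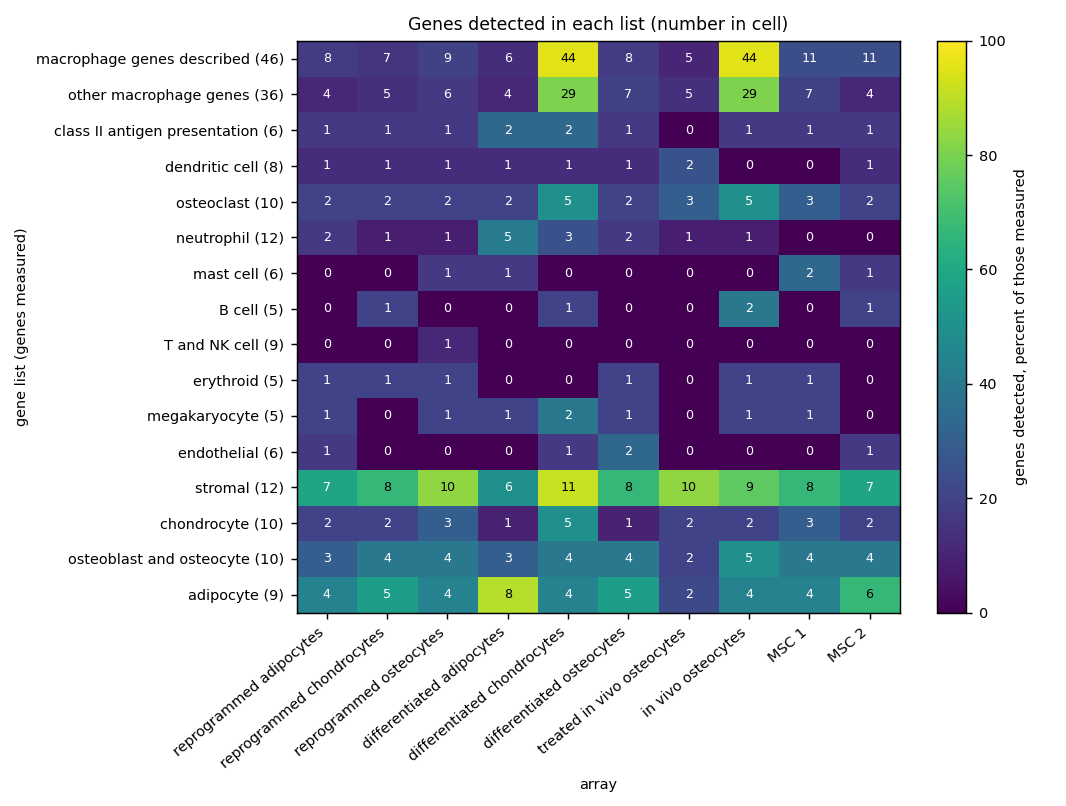
Number of genes detected in each list (cell text) and its share of the genes measured (colour), by list (rows) and array (columns). Macrophage genes fill the columns of differentiated chondrocytes and in vivo osteocytes (44 of 46 and 29 of 36 on each), where T and NK cell genes are at 0.

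The reprogrammed chondrocytes lacked nearly all of the macrophage signal seen on the differentiated ones. On reprogrammed chondrocytes 44 of 46 genes were lower than on differentiated chondrocytes by 2-fold or more, and none was higher; over all genes 11.1% were lower and 10.3% higher. For Cd163 the limit was 1.82-fold, and 43 reached 2-fold with limits. The median difference was -6.11 on the log2 scale, or -5.84 with limits, against 0.05 over all genes. C1qb stood at 4.57 on reprogrammed chondrocytes, against 14.39 on differentiated chondrocytes. Fcer1g stood at 4.58, against 14.93, at least 761-fold lower. Lyz2 stood at 4.36 without detection, against 14.69, but its second probe was detected there, at 5.81, against 13.74. The 7 genes still detected on reprogrammed chondrocytes were Cd14, Tlr2, Slc11a1, Csf1r, Cd53, Havcr2 and Mrc1, and all 7 were lower than on differentiated chondrocytes. Csf1r, for one, stood at 6.43, against 11.91, near the MSC values of 5.80 and 6.36. The second probes of Csf1r and Cd53 were not detected on reprogrammed chondrocytes, at 4.52 and 4.57. Compared with MSC, 1 gene, Havcr2, was higher on reprogrammed chondrocytes and none lower, against 0.373% of all genes lower. Of the second macrophage list 27 of 36 were lower on reprogrammed than on differentiated chondrocytes, 24 of them with limits.

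The treated in vivo osteocytes stood in the same relation to the untreated ones. Here 44 of 46 genes were lower and none higher; over all genes 9.87% were lower and 7.96% higher. The median difference was -6.22, or -5.80 with limits, against 0.00 over all genes. Laptm5 stood at 4.75 on treated in vivo osteocytes, against 14.80 on untreated ones, and Adgre1 at 4.46, against 13.23. Clec4d stood at 4.41, against 13.47. The exceptions to the 44 were Cd163 and Cybb, which the untreated array did not detect. Of the second list 28 of 36 were lower, 26 of them with limits.

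Treated in vivo osteocytes kept 2 macrophage genes above MSC, against 3.98% of all genes. Lyz2 stood at 8.47 there, against 6.52 and 4.46 on MSC 1 and MSC 2, and it was 76.9-fold below untreated in vivo osteocytes at 14.74. A second Lyz2 probe read 9.02 on treated in vivo osteocytes, against 7.23 and 5.95 on MSC, while the third was not detected on these arrays. Csf1r stood at 8.45, 5.16-fold above the MSC mean and 17-fold below untreated in vivo osteocytes. Its second probe, dimmer throughout, was not detected on treated in vivo osteocytes, at 4.49, so the remaining Csf1r signal rests on 1 probe. Spi1, Irf8, Adgre1 and Ptprc were not detected there. Lower than MSC were 3 genes, Tlr2, Trem2 and Cd53, against 3.97% of all genes; Trem2 and Cd53 were not detected there, with limits of 1.94-fold and 1.66-fold.

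**Figure D4:**
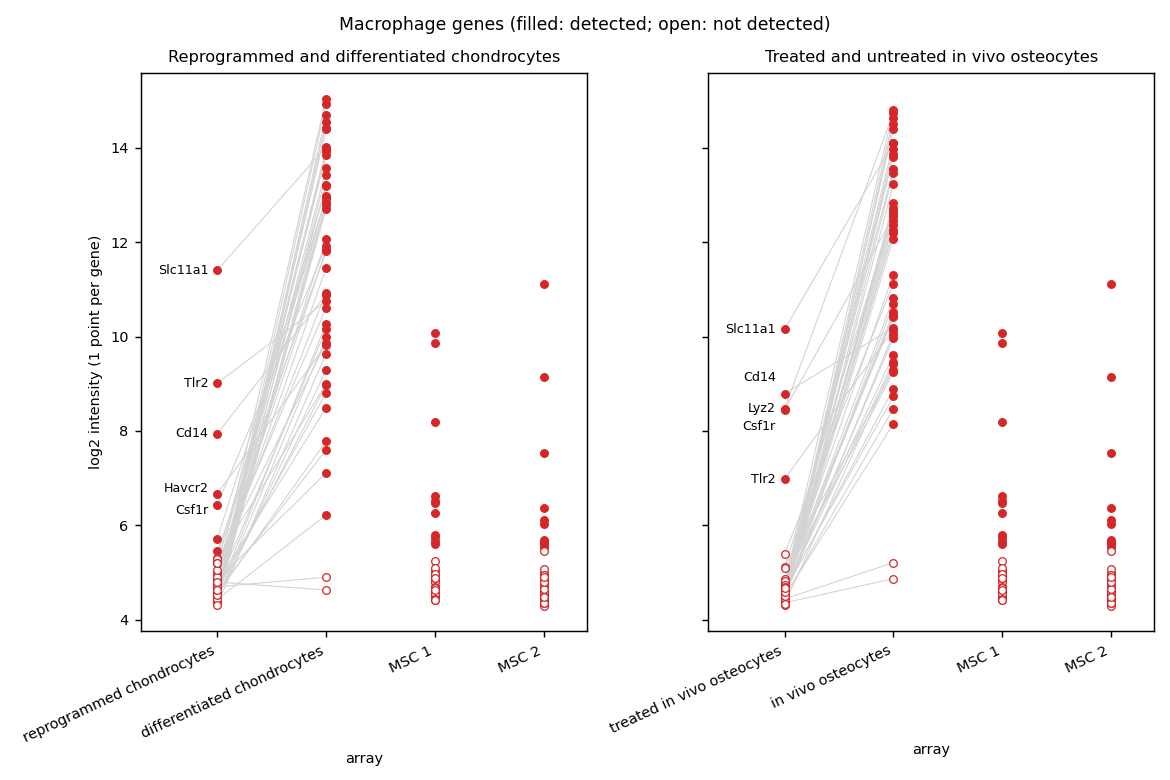
Log2 intensity of 46 macrophage genes (points, filled where detected) on reprogrammed chondrocytes, differentiated chondrocytes and both MSC arrays (left), and on treated in vivo osteocytes, untreated in vivo osteocytes and both MSC arrays (right). Grey lines join each gene across the pair, and the 7 and 5 genes still detected on the left-hand arrays include Slc11a1, Cd14, Tlr2 and Csf1r.

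In the other lineages few macrophage genes were detected on either array of a pair. Between reprogrammed and differentiated adipocytes, Tlr2 was higher, 3.58-fold, Mrc1 was counted as higher against a value without detection, with a limit of 1.09-fold (9.10% of all genes were higher), and Trem2 was lower (9.25%). Trem2 stood at 4.75 without detection on reprogrammed adipocytes, against 8.18 on differentiated adipocytes. Between reprogrammed and differentiated osteocytes none was higher (4.64%), and Cd14 and Havcr2 were lower (6.55%), at 7.17 against 8.35 and at 5.10 without detection against 7.97. Compared with MSC, reprogrammed adipocytes had no gene higher (0.105% of all genes) and Trem2 lower (0.514%), without detection and with a limit of 1.76-fold, and reprogrammed osteocytes had no gene higher (0.588%) or lower (0.273%).

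The 2 MSC arrays give the only measure of spread between samples, and nothing states that they came from separate cultures. On MSC 2 relative to MSC 1, Slc11a1 was higher (3.91% of all genes) and Mpeg1, Lyz2 and Alox5ap were lower (4.53%). Mpeg1 stood at 4.60 on MSC 2 and 5.67 on MSC 1, and Alox5ap at 4.91 on MSC 2 and 6.47 on MSC 1, with limits of 1.14-fold and 1.98-fold. Pooled over the 46 genes, the SD between the 2 arrays was 0.39 on the log2 scale, far below the median differences of the 2 high arrays from MSC. Each MSC array detected only 11 of the 46, so this SD rests mostly on values near background. It can understate the spread of detected genes, such as Slc11a1, at 10.07 on MSC 1 and 11.12 on MSC 2.

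Where lineages could serve as replicates, no macrophage gene passed. Reprogrammed minus differentiated, over 3 lineages with lineage as a block, called 49 of 17728 probes at an adjusted p under 0.05 with limma (0.135% of all probes higher and 0.141% lower), and 0 of the 11 macrophage genes that were detected on enough arrays to be tested. Trem2, at -3.80 ± 1.31 (SE) on the log2 scale, and Cd14, at -1.59 ± 0.51, had unadjusted p-values of 0.026 and 0.02 in limma, and adjusted p-values of 0.2 and 0.18. Both differences were below 0 in 3 of 3 lineages, but Trem2 in the osteocyte pair, 6.95 against 7.05, and Cd14 in the adipocyte pair, 7.12 against 7.78, lay within 2-fold. Differentiated minus MSC called 3 probes of 18131 (0.0165% higher, 0% lower) and 0 of 14 macrophage genes with limma, none of which had an unadjusted p under 0.05; over all probes 1572 did. Reprogrammed minus MSC called 0 probes and 0 of 14 genes with limma, with 72 probes (0.397%) at an unadjusted p under 0.05 and none of them a macrophage gene. The high values came from 1 of 3 differentiated populations, and the genes detected on that array alone did not enter these fits.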

How the data were processed

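Each of 10 RNA samples was hybridised to 1 array. The deposited scanner table gave, per the file headers, an intensity per array for 45281 bead probes, with its detection p-value beside it; background is still in these intensities. The authors' steps are not given in the sources used here. The deposited intensities of 8 arrays shared 1 distribution with a mean of 538, while differentiated and reprogrammed osteocytes had means of 324 and 413. The deposited value table was linear for 8 arrays and log2 for those 2. Its probe IDs did not follow the scanner table on the 8 arrays (Spearman rho -0.00745 to -0.00155), and each of its 45281 lines matched a scanner probe within 1 rank, so it was used only as an alternative, after that match, which takes the scanner table's probe IDs as given. On the 2 osteocyte arrays both tables' IDs agreed (rho 0.998 and above). Against these, the other 8 arrays gave rho of 0.733 to 0.891 over probes by the scanner table's IDs and of -0.0067 to -0.0012 by the value table's.

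Background was corrected by normexp from the detection p-values with an offset of 16, followed by quantile normalisation and log2, with limma 3.58.1 in R 4.3.3. By the platform's annotation, 34885 probes carried 1 gene symbol, 18 carried several and 10378 carried none. The macrophage genes and the other lists were chosen with earlier results of these data known. All listed genes were eligible to be named, with up to 6 genes of each other list by their difference from MSC; those named beyond this were chosen after their values were seen. A gene counted as higher or lower at 2-fold or more from every array of the other side, with detection at a p-value under 0.01 on the higher side. Where an array did not detect the gene, a fold is a lower limit, set by the lowest log2 value among detected probes (5.36 to 5.78 per array), and can be under 2-fold for a gene counted as higher or lower. Replicated contrasts used lmFit and eBayes on probes detected on at least 2 arrays, with Benjamini-Hochberg adjustment. They were also run on simulated data in which every array of a state had the same change. That run does not bear on genes that are high in a single population. Alternatives were other background, scaling, offset, detection and probe rules, the value table, and leaving out arrays. The number of arrays limits the precision.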

Additional observations from a re-analysis of the deposited data

Results flagged for a closer look

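Mrc1 and Tlr2 gave differences of opposite sign in 2 lineages under the same contrast. Reprogrammed minus differentiated cells gave 1.40 for Mrc1 in the adipocyte pair and -7.21 in the chondrocyte pair, on the log2 scale. For Tlr2 the same differences were 1.84 and -1.73. Mrc1 stood at 5.90 on reprogrammed adipocytes and was not detected on differentiated adipocytes, at 4.50, so its difference there is a limit of only 1.09-fold and its direction is not established. It stood at 5.72 on reprogrammed chondrocytes and 12.93 on differentiated chondrocytes. Tlr2 stood at 8.63 on reprogrammed and 6.79 on differentiated adipocytes, and at 9.01 on reprogrammed and 10.75 on differentiated chondrocytes. With 1 array per population, the difference between the lineages was not tested.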

How the results depend on the processing

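Of 161 values of counts and medians under the alternatives, 145 stayed close to their main value. A reversal was defined only for medians of 2-fold or more in size, and none of these reversed. The counts of macrophage genes higher than MSC ran from 41 to 44 in differentiated chondrocytes and from 42 to 44 in in vivo osteocytes over the alternatives. The gene higher than MSC in differentiated adipocytes, Trem2, was no longer counted (0) without background correction or in the value table, and Havcr2 in reprogrammed chondrocytes was not (0) without background correction or with an offset of 50. The medians moved in size: reprogrammed minus differentiated chondrocytes was -4.25 without background correction, -5.24 with an offset of 50, -5.25 with the mean of a gene's probes and -6.93 in the value table, and treated minus untreated in vivo osteocytes was -4.0, -5.16, -5.55 and -7.15 likewise. The median of differentiated chondrocytes minus in vivo osteocytes stayed between -0.08 and 0.02, with a change of sign within the spread. Without 1 MSC array the counts higher than MSC ranged from 1 to 2 in differentiated osteocytes (2 without MSC 1), from 0 to 2 in reprogrammed adipocytes (2 without MSC 2) and from 1 to 3 in reprogrammed chondrocytes (3 without MSC 2). Over lineages, reprogrammed minus differentiated ranged from 0 to 1 called macrophage genes, with Havcr2 called without the adipocyte lineage (limma adjusted p 0.03; 0.27 with all lineages). The 49 probes called there became 0 without background correction or without the detection filter, 10 with an offset of 50, 211 without the adipocyte lineage, 330 without the osteocyte lineage and 344 without the lineage block; the 3 of differentiated minus MSC became 11 without the adipocyte lineage, 1 without the osteocyte lineage or without the detection filter, and 0 without the chondrocyte lineage or either MSC array. Of 276 single-gene differences between the high arrays, 264 lay within 1 SD of the main value. That SD is the 0.39 between the MSC arrays, which rests mostly on values near background. The 8 genes at 2-fold or more kept their direction in 48 of 48. Cd163 was 0.40 without background correction, 0.78 with an offset of 50 and 0.77 with the mean of probes, under 2-fold. Cd84 was 1.26 with the mean of probes, against 0.15 by its brightest probe. Its dimmer probes read 8.10 and 8.52 on differentiated chondrocytes, against 6.49 for each on in vivo osteocytes. The causes, among them why the Cd84 probes differ, were not tested. The value table could not give values for the osteocyte pair, which stands on another scale there. Reprogrammed and differentiated cells were paired by lineage; no paired analysis was possible by replicate number because only MSC carries such numbers. Signal near background limits Cd163, Cybb and Marco, whose low values are bounds.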

Other observations

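Some genes that macrophages use stayed high in treated in vivo osteocytes, where most macrophage genes were not detected. Cyba, the membrane partner of the oxidase subunit Cybb, stood at 11.93 in treated in vivo osteocytes and 13.49 in untreated ones, against 9.28 and 7.37 on MSC 1 and MSC 2. Gpnmb stood at 11.24 in treated in vivo osteocytes and 14.63 in untreated ones, and was also high in differentiated osteocytes, at 10.76. Stab1 ran the other way, at 11.46 in treated and 10.06 in untreated in vivo osteocytes, and at 11.32 in reprogrammed and 9.88 in differentiated chondrocytes. Lcn2, a neutrophil granule and acute-phase protein, stood at 9.73 in differentiated chondrocytes and 4.33 without detection in in vivo osteocytes, but highest in differentiated adipocytes, at 14.99, where few macrophage genes were detected. Each value is from 1 array and has no test.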
